A study of Mus musculus with 2 samples.

Results

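*Ly6c2*, *Ly6i*, *Ly6a*, *Ly6e* and *Plac8* are 5 of the 27031 genes in a table of transcript counts from mouse tumor leukocytes. They were selected on their counts in these same cells, compared between cell types and between the treatment groups, so the levels and ratios given here for them are a description. Ly6 proteins are small surface proteins that a lipid anchor holds in the cell membrane. Ly6C, the product of *Ly6c2* and its neighbor *Ly6c1*, marks the blood monocytes that enter inflamed tissue and tumors, and it is also carried by some T cells. *Ly6a* encodes Sca-1, known from blood stem cells and activated lymphocytes. *Ly6e* and *Ly6a* are known to respond to interferons, whereas *Plac8* encodes a small cysteine-rich protein inside the cell that does not belong to the Ly6 family.

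The cells came from tumors of MC38, a mouse colon cancer line, grown under the skin of female C57BL/6 mice aged 6 to 8 weeks. A control group of 5 mice was given vehicle, and a second group of 5 mice was given 5 mg/kg of telmisartan, an angiotensin receptor blocker, into the stomach each day. Tumors were taken on day 13, live CD45+ cells were sorted, and the cells of each group were marked with their own Sample Tag before both were loaded together on 1 BD Rhapsody capture. Each group was thus 1 pool in which the mice cannot be told apart, so no difference between the groups was tested and every 95% interval covers counting error only.

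After filters on tag reads, genes and mitochondrial UMIs, 8969 cells were kept. Control had 4542 of them with 41768680 UMIs (transcript molecules) and a median of 8720.5 UMIs per cell. Telmisartan had 4427 cells with 30939085 UMIs and a median of 6365. The telmisartan cells were the shallower ones, and levels are therefore given as CPM, the UMIs of a gene per 1000000 UMIs of the summed cells.

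Clustering gave 12 clusters, which were sorted into 4 classes by markers of cell types. The T cell-like class had 186 cells, and *Trac* was found in 80.1% of them against 1.69% of macrophage-like cells. The dendritic cell-like class had 664 cells in 3 clusters, set apart by *Cd209a*, by *Ccr7* with *Fscn1*, and by *Xcr1* with *Clec9a*. The neutrophil-like class had 72 cells, with *S100a8* in 75% of them, and *Ly6g* was not detected there, which allows up to 20.9 CPM. A count of 0 is given throughout with the limit that 3 UMIs, or 3 cells for a share, would set. The other 8047 cells, in 6 clusters, are called macrophage-like. All 11 macrophage and all 7 monocyte markers were detected in each of these clusters, but also in 1 dendritic cell-like, 1 T cell-like and the neutrophil-like cluster, and it was their level that differed. Summed, these markers had between 11130 and 24471 CPM in the macrophage-like clusters and between 1717 and 7859 in the others. *Csf1r* was found in 88.0% of macrophage-like, 55.3% of dendritic cell-like, 24.7% of T cell-like and 16.7% of neutrophil-like cells. *Adgre1* was found in 47.5%, 6.48%, 12.4% and 6.94% of them. Macrophage and monocyte markers were counted together, since the naming rule had no monocyte class. No cluster had 3 raised monocyte markers of its own.

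Of the 6 macrophage-like clusters, 1 had far fewer UMIs per cell than the rest. It held 1936 cells (721 control and 1215 telmisartan) and was led by *Rsad2*, *Ifit3* and *Slfn4*. Like each of the 6, it had none of the 11 macrophage markers among its 10 leading genes. Its summed markers were the lowest of the 6, at 11130 CPM. Macrophage markers were not used for naming, and the 6 clusters are those that no other class claimed. Its median depth was 0.305 of the control median and 0.430 of the telmisartan median, so its cell type is less certain. Values without it are given for the members' ratios in the whole class and for 5 of the 7 gene lists. Shares of cells, their concentration, co-detection and the ranges of other genes' UMIs were not recomputed without it.

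Re-clustering split the macrophage-like cells into 7 subclusters, which are referred to by number. Subcluster 1 (2666 cells) was led by *Dcstamp*, *Lilra6* and *Cd24a*, subcluster 2 (1619) by *Apoe*, *Cbr2* and *Serpinb6a*, and subcluster 3 (1191) by *Ifit3*, *Ifit2* and *Ifit1*. Subcluster 4 (980) was led by *Serpinb2*, *Il6* and *Hmox1*, subcluster 5 (705) by *Top2a*, *Ccna2* and *Ube2c*, subcluster 6 (628) by *Serpina3g*, *Iigp1* and *Cxcl9*, and subcluster 7 (258) by *Ung*, *Mcm5* and *Mcm6*. Subcluster 3 had a median of 2517 UMIs per cell, 0.276 of the control median and 0.406 of the telmisartan median, and is given no cell type beyond its class. The Ly6 genes and *Plac8* were left out of the genes used for clustering.

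Between 80.3% and 90.4% of the UMIs of each gene in each group lay in macrophage-like cells, the most numerous class. By CPM the order was different. *Ly6c2* had its highest level in T cluster 1, the 144 cells led by *Gzmc*, *Gzmf* and *Ccl1*, with 779 CPM in control (95% interval 687 to 880) and 1288 in telmisartan (1169 to 1416). It had 1 UMI in control and 2 in telmisartan in T cluster 2, the 42 cells led by *Icos*, *Foxp3* and *Tnfrsf4*, a log2 ratio of 1.23 with an interval from -3.03 to 7.12. The name "surface antigens of monocytes" is thus too narrow for *Ly6c2* in these tumors, since the T cell-like cells led by granzyme genes had more of it by CPM than any macrophage subcluster, in both groups.

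Among macrophage subclusters *Ly6c2* was highest in subcluster 3, at 368 CPM in control and 831 in telmisartan, and lowest in subcluster 2, at 10.5 and 32.0. In control the neutrophil-like cells (435 CPM, 313 to 588) could not be placed above or below subcluster 3 (336 to 402). Subclusters 6, 4 and 1 followed with 131, 97.1 and 79.5 CPM and intervals that did not overlap. The intervals of subclusters 7 and 5 overlapped, at 44.0 and 42.7 CPM, as did those of each lower unit and the next. With telmisartan the order of subclusters 4 and 6 was the other way round, at 378 and 254 CPM. Dendritic cluster 2, the *Fscn1* and *Ccr7* cells, had 3 *Ly6c2* UMIs in control (7.80 CPM) and 0 in telmisartan, which allows up to 11.6 CPM.

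*Plac8* followed a similar but not identical order. Its highest levels in control were 498 CPM in subcluster 3 and 411 in T cluster 1, whose intervals overlapped, and in telmisartan 643 CPM in T cluster 1 and 642 in subcluster 3. Unlike *Ly6c2*, it was also well detected in dendritic cells, with 181 CPM in control and 488 in telmisartan in dendritic cluster 1, the *Cd209a* cells. Dendritic cluster 3, the *Xcr1* cells, had 187 and 344 CPM. The lowest levels were 7.60 CPM in subcluster 7 in control and 22.2 in subcluster 5 in telmisartan.

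The balance of *Ly6c2* and *Plac8* differed between macrophage-like, T cell-like and dendritic cell-like cells by more than counting error. Macrophage-like cells had 1.14 *Ly6c2* UMIs for each *Plac8* UMI in control (1.08 to 1.20) and 1.22 in telmisartan (1.17 to 1.27). T cell-like cells had 1.88 and 1.84, and dendritic cell-like cells 0.162 and 0.180. Neutrophil-like cells had 3.23 in control (1.70 to 6.56) and 0.6 in telmisartan (0.179 to 1.82), on few UMIs. The macrophage subclusters alone ran from 0.665 in subcluster 4 to 5.79 in subcluster 7 in control, which is wider than the difference between macrophage-like and T cell-like cells.

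*Ly6i*, a neighbor of *Ly6a*, was highest in subcluster 6, whose leading genes respond to interferon gamma. It had 253 CPM there in control (239 to 268) and 186 in telmisartan (165 to 209). Dendritic cluster 1 came next with 135 and 129 CPM, and its intervals overlapped those of subcluster 3 (118 and 120 CPM). *Ly6i* was close to absent from T cell-like cells, with 0 UMIs in control, which allows up to 6.40 CPM, and 6 in telmisartan (13.3 CPM). Subcluster 2 was the lowest macrophage subcluster, at 6.94 and 11.3 CPM.

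*Ly6a* was higher in dendritic and T cell-like cells than in macrophage-like cells. Dendritic cell-like cells had 1437 CPM in control and 1505 in telmisartan and T cell-like cells 1329 and 1705, against 699 and 618 in macrophage-like cells. The highest single levels were those of T cluster 2 (1982 CPM in control and 2973 in telmisartan) and subcluster 6 (2139 and 2019), and in control the intervals of the pair overlapped. Levels in subclusters 1 and 2 were lower, with 419 and 303 CPM in control. Dendritic cluster 2 had 169 CPM in control and 314 in telmisartan.

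*Ly6e* was the most abundant and the most even of the 5 genes. Its control levels ran from 804 CPM in subcluster 4 to 2109 in subcluster 3 among macrophage subclusters, and up to 2730 in T cluster 2. Subclusters 3 and 6 and dendritic clusters 1 and 3 had overlapping intervals with their neighbors in that order, at 2109, 2082, 2018 and 1925 CPM. Dendritic cluster 2 stood apart with 270 CPM in control and 240 in telmisartan, below neutrophil-like cells at 652 and 889.

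**Figure D1:**
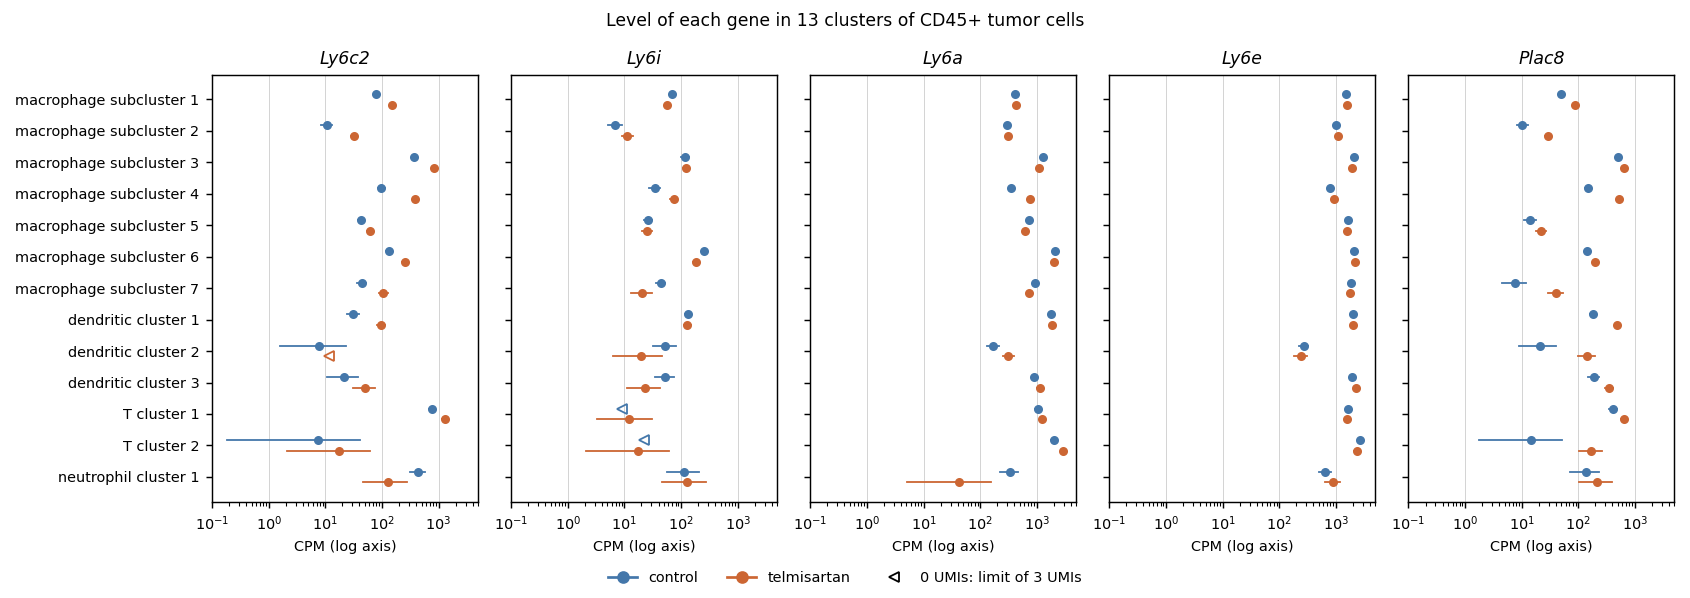
Levels in CPM (log axis) of each gene in the 7 macrophage subclusters, 3 dendritic clusters, 2 T clusters and the neutrophil cluster, with control and telmisartan cells as separate points, exact Poisson 95% intervals as lines, and open triangles at the level of 3 UMIs where there were 0 UMIs. In control cells *Ly6c2* ran from 779 CPM in T cluster 1 to 7.26 in T cluster 2, and *Ly6e* from 2730 in T cluster 2 to 270 in dendritic cluster 2.

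In macrophage-like cells *Ly6c2* and *Plac8* were both more than 2-fold higher with telmisartan, while the other members differed far less. *Ly6c2* had 75.2 CPM in control (72.5 to 78.0, 2881 UMIs) and 195 in telmisartan (190 to 200, 5535 UMIs). The log2 ratio was 1.38 (1.31 to 1.44), rank 41 from the highest among 11072 genes with at least 100 UMIs. *Plac8* had 66.2 CPM in control (63.6 to 68.8) and 161 in telmisartan (156 to 165), a log2 ratio of 1.28 (1.21 to 1.35) and rank 55. These 2 of 5 genes were chosen with that contrast in view, so the background is given beside the count and nothing is read from it. Of the 11072 genes, 1.27% were at least 2-fold and 4.73% at least 1.5-fold higher with telmisartan.

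Both values were smaller without the shallow cluster. Without its cells, an alternative chosen after seeing the data, *Ly6c2* had 61.9 CPM in control and 108 in telmisartan, a log2 ratio of 0.80. *Plac8* without them had 44.0 and 63.6 CPM, a log2 ratio of 0.53. Both genes were thus still higher with telmisartan but by less than 2-fold. With each subcluster given the same weight in both groups, *Plac8* also had a log2 ratio of 0.80. Over all 12 alternatives the log2 ratio ran from 0.80 to 1.43 for *Ly6c2* and from 0.53 to 1.36 for *Plac8*. The part of that cluster's low depth in the result was not tested.

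*Ly6i* went the other way, with 70.0 CPM in control (67.4 to 72.7) and 53.4 in telmisartan (50.8 to 56.2), a log2 ratio of -0.39 (-0.48 to -0.30). Without the shallow cluster it had 68.9 and 44.5 CPM and a log2 ratio of -0.63. The cells of the class were spread unevenly over its clusters, and the cluster led by *Cxcl9*, *Iigp1* and *Serpina3g*, with *Ly6i* among its 10 leading genes, held 1327 control and 414 telmisartan cells. With each subcluster given the same weight in both groups the log2 ratio of *Ly6i* was only -0.088, and it was below 0 under each of the 12 alternatives. In the whole class 0 of 5 members were at least 1.5-fold lower, where 2.25% of the 11072 genes were.

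*Ly6a* had 699 CPM in control and 618 in telmisartan, a log2 ratio of -0.18 (-0.21 to -0.15), whose sign changed, at 0.0013, under those equal weights. Without the shallow cluster *Ly6a* had 687 and 540.5 CPM, a log2 ratio of -0.35. *Ly6e* had 1504 and 1469 CPM, a log2 ratio of -0.034 (-0.052 to -0.016), whose sign also changed there, at 0.023, and which was -0.043 without the shallow cluster. The median log2 ratio over the 11072 genes was -0.045, with quartiles at -0.20 and 0.14, and the values of *Ly6a* and *Ly6e* lay between these quartiles. Over the 12 alternatives the log2 ratio ran from -0.59 to 0.0013 for *Ly6a* and from -0.44 to 0.023 for *Ly6e*. Counted as UMIs per cell without scaling, the median of all genes was -0.46, and as the mean of ln(1 + UMIs per 10000) it was -0.17. Beside that unscaled shift of -0.46, the unscaled log2 ratios were 0.97 for *Ly6c2*, 0.87 for *Plac8*, -0.80 for *Ly6i*, -0.59 for *Ly6a* and -0.44 for *Ly6e*.

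Macrophage-like cells also differed in quality between the groups. Their median was 8997 UMIs in control and 6474 in telmisartan, and mitochondrial UMIs made up a median of 7.20% and 8.14%. Of the marker lists of other cell types, all at low levels in these cells, 5 differed by more than counting error and 6 had intervals that included 0. The 7 neutrophil markers, all detected and led by *Mmp8*, summed to 81.7 CPM in control and 104 in telmisartan, a log2 ratio of 0.34 (0.27 to 0.42). The 10 T cell markers, all detected and led by *Cd2*, summed to 14.99 and 18.7 CPM (0.32), and the 5 plasmacytoid dendritic cell markers, 4 of them detected and led by *Tcf4*, to 113 and 143 CPM (0.34). The 4 fibroblast markers, all detected and led by *Col1a1*, summed to 5.80 and 9.91 CPM (0.77), and the 3 red blood cell markers, all detected and led by *Hba-a1*, to 3.03 and 0.564 CPM (-2.42). The 11 macrophage markers, all detected and led by *Lyz2*, had a log2 ratio of -0.094, and the 7 monocyte markers, all detected and led by *Ccr2*, one of 0.0079 with an interval that included 0. The part of any of these differences in the ratios was not tested.

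Within the macrophage subclusters *Ly6c2* and *Plac8* were higher with telmisartan in all 7, with intervals above 0. Of the 11072 genes, 5.93% were higher in each of the 7. The largest *Ly6c2* ratio was in subcluster 4, with 97.1 CPM in control and 378 in telmisartan, a log2 ratio of 1.96 (1.74 to 2.18). The smallest was in subcluster 5, the cells with mitosis genes, with 42.7 and 60.7 CPM and a log2 ratio of 0.51 (0.24 to 0.77). Subclusters 1, 2, 3, 6 and 7 had log2 ratios of 0.92, 1.61, 1.18, 0.96 and 1.27.

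Among macrophage subclusters *Plac8* had its largest ratio on few UMIs, in subcluster 7. It had 7.60 CPM there in control and 39.9 in telmisartan (19 and 43 UMIs), a log2 ratio of 2.39 (1.58 to 3.25). Larger log2 ratios, also on few UMIs, were those of T cluster 2 (3.56, 2 and 20 UMIs) and dendritic cluster 2 (2.79, 8 and 37 UMIs). Subcluster 4 had 146 and 533 CPM, a log2 ratio of 1.87 (1.69 to 2.05). In subcluster 3, the macrophage subcluster where *Plac8* was highest, the groups were closer, at 498 and 642 CPM, a log2 ratio of 0.36 (0.23 to 0.50). *Ly6c2* in the same cells had a log2 ratio of 1.18, so the ratios of the pair were unlike there. *Ly6c2* UMIs per *Plac8* UMI in subcluster 3 were 0.738 in control (0.655 to 0.831) and 1.30 in telmisartan (1.21 to 1.38).

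The other members had no common direction over the subclusters. *Ly6i* was higher with telmisartan in subcluster 4, at 34.1 CPM in control and 73.8 in telmisartan, and in subcluster 2. It was lower in subclusters 1, 6 and 7, with log2 ratios of -0.28, -0.45 and -1.108, and its intervals included 0 in subclusters 3 and 5. *Ly6a* in subcluster 4 had 346 CPM in control and 764 in telmisartan, a log2 ratio of 1.14 (1.02 to 1.26). Its log2 ratios in the other subclusters lay between -0.35 in subcluster 7 and 0.061 in subcluster 1. For *Ly6e* the log2 ratios ran from -0.13 in subcluster 3 to 0.22 in subcluster 4. Subcluster 4 was the 1 subcluster in which all 5 genes were higher with telmisartan by more than counting error. The share of all genes that were higher there was not computed, so nothing is read from that count. Subcluster 4 was also shallow, with a median of 3866 UMIs per cell, 0.480 of the control and 0.580 of the telmisartan median. The part of this low depth in its ratios was not tested.

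**Figure D2:**
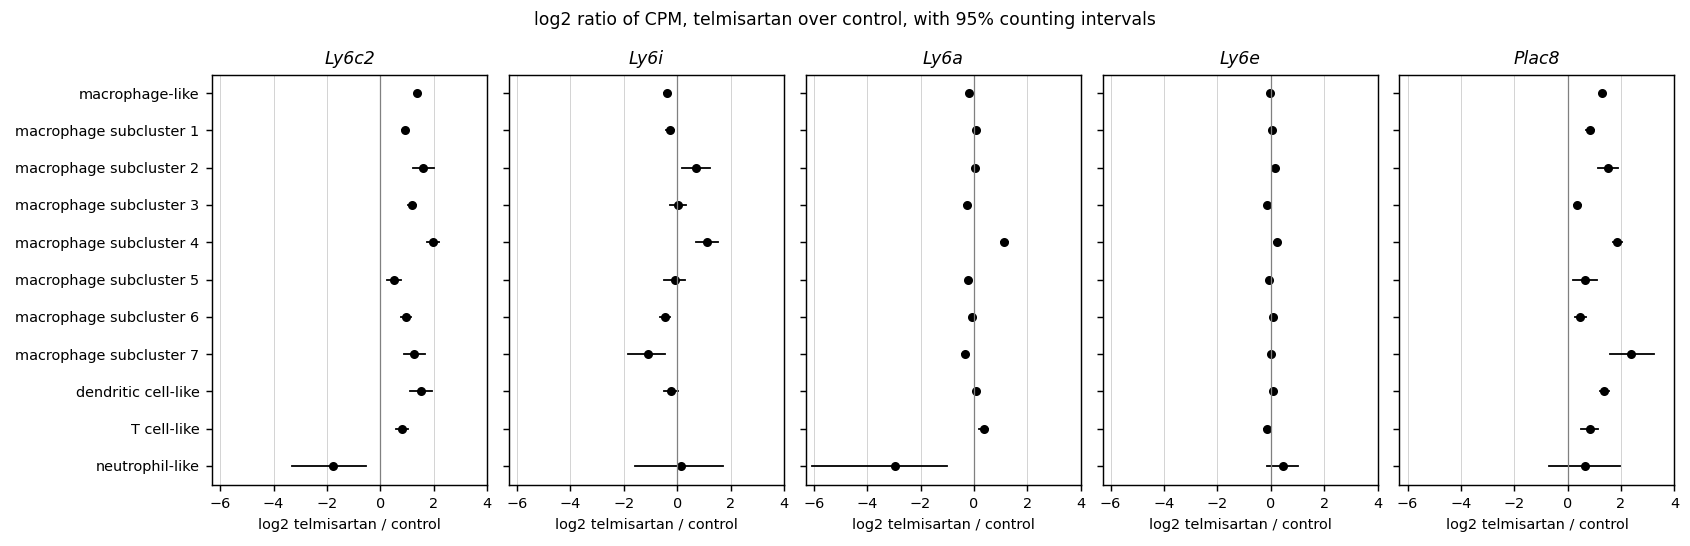
The log2 ratio of CPM, telmisartan over control, for each gene in macrophage-like cells, their 7 subclusters and the other 3 classes, with exact conditional binomial 95% intervals as lines (counting error only) and no point where a group had 0 UMIs. *Ly6c2* and *Plac8* lay above 0 in all 7 subclusters, with *Ly6c2* between 0.51 and 1.96, while *Ly6e* stayed between -0.13 and 0.22 there.

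Dendritic cell-like cells had the same pair of genes higher. *Ly6c2* had 26.1 CPM in control and 74.5 in telmisartan (76 and 156 UMIs), a log2 ratio of 1.51 (1.108 to 1.93). *Plac8* had 161 and 415 CPM, a log2 ratio of 1.37 (1.20 to 1.53). These were 2 of 5 members past 1.5-fold, where 3.7% of 5843 genes with at least 100 UMIs in these cells were. *Ly6i*, *Ly6a* and *Ly6e* had log2 ratios of -0.23, 0.067 and 0.065 there, and of these only the interval of *Ly6e* (0.0049 to 0.13) did not include 0. Over 7 alternatives the *Ly6e* ratio ran from 0.057 to 0.15. Marker lists differed here too. The 10 dendritic cell markers, all detected and led by *Ccl22*, summed to 3518 CPM in control and 2862 in telmisartan, a log2 ratio of -0.30. The 7 monocyte markers, all detected and led by *Ccr2*, summed to 488 and 577 CPM (0.24). The 10 T cell markers, of which 9 were detected, *Cd4* was at 0 and *Cd2* led, summed to 11.3 and 35.4 CPM (1.64). The 11 macrophage markers, all detected and led by *Lyz2*, were lower, at 3661 and 3233 CPM (-0.18). Also lower by more than counting error were 3 other lists. Of 4 tumor epithelial markers 2 were detected, with 124 UMIs in control and 38 in telmisartan (-1.23). *Epcam* alone had 160 UMIs over both groups, and *Krt8* and *Krt19* were at 0. Of 7 neutrophil markers 6 were detected, led by *Csf3r*, with 26 and 8 UMIs (-1.22). Of 4 fibroblast markers 3 were detected, led by *Col1a1*, with 15 and 3 UMIs (-1.85). The part of these in the *Ly6c2* and *Plac8* ratios was not tested.

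T cell-like cells numbered 74 in control and 112 in telmisartan. They were spread unevenly, with 52 control and 92 telmisartan cells in T cluster 1 and 22 and 20 in T cluster 2. *Ly6c2* had 552 CPM in control and 959 in telmisartan, a log2 ratio of 0.80 (0.57 to 1.02), and *Plac8* had 294 and 520 CPM, a log2 ratio of 0.82 (0.51 to 1.14). In this class 9.59% of 1658 genes were at least 1.5-fold higher. *Ly6a* had a log2 ratio of 0.36 (0.21 to 0.51) and *Ly6e* one of -0.13 (-0.27 to 0.0073). The *Ly6a* ratio ran from 0.16 to 0.36 over 7 alternatives. Marker lists of cell types also differed between the groups in this class. The 11 macrophage markers, all detected and led by *Lyz2*, summed to 5880 CPM in control and 3164 in telmisartan, a log2 ratio of -0.89. The 10 T cell markers, all detected and led by *Trac*, summed to 4611 and 6558 CPM (0.51), and the 5 NK cell markers, all detected and led by *Gzma*, to 1039 and 438 CPM (-1.24). The 7 monocyte markers, all detected and led by *Ccr2*, summed to 891 and 616 CPM (-0.53). Of 10 dendritic cell markers 7 were detected, led by *Ccr7*, with 126 and 230 CPM (0.87). Of 5 endothelial cell markers 2 were detected, led by *Pecam1*, with 64.0 and 31.0 CPM (-1.05). The part of these differences in the *Ly6c2* and *Plac8* ratios was not tested. T cluster 1 held nearly all of the *Ly6c2* UMIs of the class, 258 of 259 in control and 431 of 433 in telmisartan. Within T cluster 1 the log2 ratio was 0.73 (0.50 to 0.95) for *Ly6c2* and 0.65 (0.33 to 0.97) for *Plac8*.

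Neutrophil-like cells, with a median depth of 0.198 of the control and 0.282 of the telmisartan median, gave wide intervals. *Ly6c2* had 42 UMIs in control (435 CPM) and 6 in telmisartan (127 CPM), a log2 ratio of -1.78 (-3.30 to -0.53). That value depended on which cells were kept, since it was -0.073 with at most 10% mitochondrial UMIs and -0.30 without doublet removal. In the same cells the 7 neutrophil markers, 6 of them detected and led by *S100a9*, summed to 17216 CPM in control and 9224 in telmisartan, a log2 ratio of -0.90. The 11 macrophage markers, all detected and led by *Lyz2*, summed to 4172 and 2137 CPM (-0.97), and the part of either in the *Ly6c2* ratio was not tested. *Ly6a* had 32 and 2 UMIs, a log2 ratio of -2.97 (-6.08 to -0.998). The intervals of *Ly6i*, *Ly6e* and *Plac8* included 0, and the *Plac8* ratio ran from 0.28 to 2.97 over 7 alternatives.

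The share of cells with a UMI depends on depth, so each macrophage-like cell was thinned to 1000 UMIs, which left out 45 control and 72 telmisartan cells. *Ly6c2* was then found in 6.46% of control cells (5.72 to 7.26) and 13.3% of telmisartan cells (12.2 to 14.4), against 21.3% and 30.9% unthinned. *Plac8* was found in 6.56% and 12.4%, against 17.1% and 27.8% unthinned. Among cells with a UMI the mean number of *Ly6c2* UMIs was 1.66 in control and 2.24 in telmisartan. Both the share of cells and the UMIs per positive cell were thus higher with telmisartan.

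For comparison, the *Fscn1* and *Ccr7* cells of dendritic cluster 2, a dendritic type that should lack *Ly6c2*, had it in 0 of 60 thinned control cells, which allows up to 5%, and in 0 of 46 telmisartan cells, which allows up to 6.52%. Their median depths were 5776 and 4811.5 UMIs, against 8997 and 6474 in macrophage-like cells. So few cells bound the share loosely. By level, the control cells of dendritic cluster 2 had 7.80 CPM of *Ly6c2* (1.61 to 22.8) where control macrophage-like cells had 75.2 (72.5 to 78.0). *Ly6i* was found in 6.31% of control and 5.15% of telmisartan macrophage-like cells, against 20.2% and 15.3% unthinned. After thinning to 500 UMIs it was found in 3.21% and 2.83% of macrophage-like cells. In T cell-like cells, the class with the lowest *Ly6i* level, it was found in 0 of 74 control (up to 4.05%) and 1.79% of telmisartan cells. That class was not shown to lack the gene, so it sets no background share. Its median cell had 3982.5 UMIs in control and 3056 in telmisartan. The 74 cells again bound the share loosely. By level, *Ly6i* had 0 UMIs in control T cell-like cells, up to 6.40 CPM, against 70.0 CPM (67.4 to 72.7) in control macrophage-like cells. The levels lay closer in telmisartan, at 13.3 CPM (4.88 to 28.9) in T cell-like and 53.4 (50.8 to 56.2) in macrophage-like cells.

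*Ly6a* was found in 31.1% of thinned control and 30.7% of thinned telmisartan macrophage-like cells, against 59.1% and 58.9% unthinned, and *Ly6e* in 68.4% and 67.0%, against 95.5% and 93.6%. No cell type in the capture was taken to lack *Ly6i*, *Ly6a*, *Ly6e* or *Plac8*, so there is no background share for them. *Plac8* was found in 5% of control and 8.70% of telmisartan cells of dendritic cluster 2 after thinning, with intervals (1.04 to 13.9 and 2.42 to 20.8) that included the macrophage-like shares.

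A small number of cells held much of the *Ly6c2*. The 1% of macrophage-like cells with the most *Ly6c2* UMIs held 28.0% of them in control and 24.0% in telmisartan, and the top 10% held 83.0% and 77.1%. For *Plac8* the top 1% held 33.1% and 21.6%. *Ly6i* was about as concentrated, with 25.2% and 28.7% in the top 1% and 82.9% and 86.0% in the top 10%. *Ly6e*, the most abundant member, was spread widely, with 4.84% and 5.38% in the top 1%. What share counting alone would give at each gene's abundance was not computed. The highest *Ly6c2* count in a cell was 45 UMIs in control and 82 in telmisartan.

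The same cells tended to carry both *Ly6c2* and *Plac8*. Among thinned macrophage-like cells with a *Ly6c2* UMI, 29.0% of control cells (75 of 259) also had a *Plac8* UMI, against 5.01% of cells without *Ly6c2*. In telmisartan the shares were 39.3% (205 of 521) and 8.30%. *Ly6i* was found in 16.6% of control cells with *Ly6c2* and 5.60% of those without, and *Ly6a* in 63.6% of control cells with *Ly6i* and 29.0% of those without. All of these cells share 1 library and its free RNA, so the shares are descriptions.

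Genes known for type I interferon responses were higher as a group in the same cells. Of 19 such genes 19 were higher with telmisartan in macrophage-like cells, 14 of them past 1.5-fold, with a median log2 ratio of 0.98. Of all 11072 genes 57.0% were lower with telmisartan and 4.73% past 1.5-fold higher, with a median of -0.045. Their sum was 659 CPM in control and 1236 in telmisartan. The most abundant were *Slfn4* (79.3 and 262 CPM), *Bst2* (94.6 and 125), *Oasl2* (62.4 and 97.8) and *Stat2* (70.6 and 85.2). *Rsad2*, *Isg15*, *Irf7*, *Oasl1*, *Ifit3*, *Cmpk2* and *Ifi44* were also past 2-fold, with log2 ratios of 1.24, 1.10, 1.06, 1.65, 1.19, 1.07 and 2.01. Without the shallow cluster, which these genes lead, 17 of 19 were higher, 9 past 1.5-fold, with a median of 0.55 and a sum of 439 and 613 CPM.

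Most genes of the interferon gamma response were lower with telmisartan. Of 18 genes 14 were lower, 3 past 1.5-fold, and 1 was past 1.5-fold higher, with a median log2 ratio of -0.26, where 57.0% of all genes were lower, 2.25% past 1.5-fold lower and 4.73% past 1.5-fold higher. Their sum was 3092 CPM in control and 2413 in telmisartan. *Cxcl9*, a chemokine that attracts T cells, had 877 and 399 CPM, *Cxcl10* 455 and 438, *Nos2* 296 and 285 and *Cd274* 275 and 231. *Serpina3g* and *Ciita* were past 2-fold lower, with log2 ratios of -1.24 and -1.06. *Ly6i*, highest in the subcluster that these genes lead, was lower as well. The macrophage-like cluster led by *Cxcl9*, *Iigp1* and *Serpina3g* held 1327 control and 414 telmisartan cells, and the part of this uneven make-up of the class in the lower sum was not tested. Without the shallow cluster 16 of 18 were lower, 7 past 1.5-fold, with a median of -0.50.

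All 5 genes stood higher in the cells with most type I interferon UMIs than in those with none. How many of all genes did so was not computed, so nothing is read from that count. Thinned macrophage-like cells were sorted by their UMIs of the 19 genes, a range and not a cell type. Cells with 0 such UMIs (2514 control and 1944 telmisartan) had 59.3 CPM of *Ly6c2* in control and 116 in telmisartan, a log2 ratio of 0.97 (0.66 to 1.27). Cells with at least 6 (121 and 327) had 702 and 1073 CPM, a log2 ratio of 0.61 (0.27 to 0.97). *Plac8* had 50.9 and 80.2 CPM in the cells with 0 and 851 and 902 in those with at least 6. The interval of the *Plac8* ratio included 0 in the latter (-0.24 to 0.42) and in cells with 1 to 2 such UMIs (-0.027 to 0.55), and the ratio was 1.05 (0.66 to 1.45) in cells with 3 to 5. *Ly6c2* was higher with telmisartan in each of the 4 ranges. From the cells with 0 to those with at least 6, control cells had 70.8 and 248 CPM of *Ly6i*, 512 and 1736 of *Ly6a* and 1327 and 2488 of *Ly6e*. Telmisartan cells had 46.3 and 122, 414 and 1514, and 1228 and 2012.

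Sorted by UMIs of the complement genes *C1qa*, *C1qb* and *C1qc*, which mark mature macrophages, *Ly6c2* was lowest in the cells with most of them. It had 141 CPM in control and 441 in telmisartan in cells with 0 such UMIs, and 24.4 and 133 in cells with at least 6. The log2 ratio was 1.65 in cells with 0, 0.80 with 1 to 2, 1.29 with 3 to 5 and 2.45 (1.80 to 3.14) with at least 6, the last on 24 and 121 UMIs. *Ly6i* was lower with telmisartan in cells with at least 6, at 52.9 and 29.7 CPM, while in cells with 0 it had 106 and 102 CPM and the interval of the ratio included 0. Sorted by the interferon gamma genes, *Ly6i* had 34.5 and 32.8 CPM in cells with 0 UMIs and 274 and 175 in cells with at least 6. *Ly6c2* also stood higher there, with 67.4 and 156 CPM in the former and 183 and 641 in the latter, as did *Plac8*, with 52.2 and 117 and then 265 and 516.

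**Figure D3:**
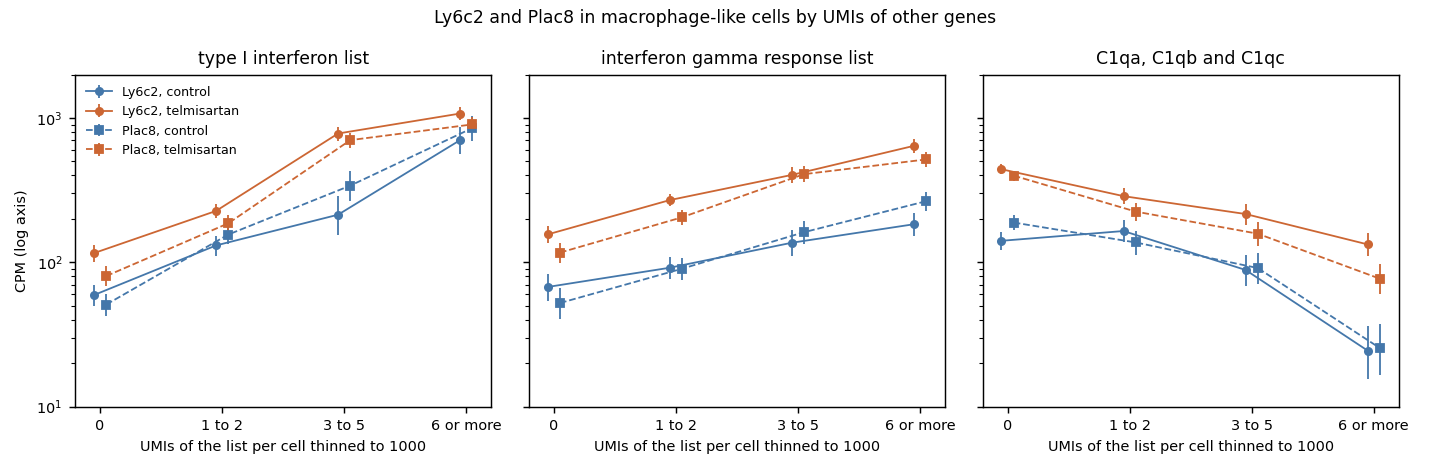
*Ly6c2* (circles) and *Plac8* (squares) in CPM (log axis) in thinned macrophage-like cells of control and telmisartan, by the number of UMIs a cell had of the type I interferon genes, the interferon gamma genes or the C1q genes, with exact Poisson 95% intervals as bars. *Ly6c2* went from 59.3 CPM in control cells with 0 type I interferon UMIs to 702 in those with at least 6, and control cells had 141 CPM with 0 C1q UMIs and 24.4 with at least 6.

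Other genes of classical monocytes differed less between the groups than *Ly6c2* did. Of 16 genes 11 were higher and 5 lower with telmisartan, 2 of them past 1.5-fold higher, with a median log2 ratio of 0.30, which was 0.068 without the shallow cluster. These counts and those of the next 3 lists stand beside 57.0% of all genes lower, 4.73% past 1.5-fold higher and 2.25% past 1.5-fold lower. The most abundant were *Fn1* (2864 CPM in control and 2389 in telmisartan), *Cd14* (2123 and 2614), *Thbs1* (1647 and 2017) and *S100a4* (701 and 709). Of 8 nonclassical monocyte genes with at least 100 UMIs 5 were higher, 3 of them past 1.5-fold, and 3 lower, 1 of them past 1.5-fold, with a median of 0.25. *Nr4a1*, a nuclear receptor needed by that monocyte type, had 488 and 784 CPM, *Cx3cr1* 106 and 135, *Itgal* 92.6 and 58.7 and *Pou2f2* 20.1 and 22.2.

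Among 16 genes of macrophage maturation 8 were higher, 2 of them past 1.5-fold, and 8 lower, with a median log2 ratio of 0.010, which was 0.065 without the shallow cluster. *Apoe*, which encodes a lipid carrier, had 1157 CPM in control and 2556 in telmisartan, a log2 ratio of 1.14. *C1qb* had 1767 and 1765 CPM, *C1qc* 1395 and 1346 and *Cd68* 897 and 1036. Of 7 interferon, receptor and kinase genes with at least 100 UMIs 5 were higher and 2 lower, 0 of them past 1.5-fold, with a median of 0.14. Their most abundant members were *Ifngr1* (169 and 187 CPM), *Jak1* (159 and 163), *Ifngr2* (109 and 124) and *Ifnar1* (98.8 and 122).

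Apart from *Plaur*, the other Ly6 family genes had few UMIs. Of 31 further family genes 25 were in the table, 3 of them with at least 100 UMIs in the kept cells, 18 with 1 to 99 and 4 with 0. In macrophage-like cells *Plaur*, the urokinase receptor, had 1028 CPM in control and 1160 in telmisartan, a log2 ratio of 0.17 (0.15 to 0.19), and it was the 1 of these 3 whose interval did not include 0. *Cd59a* had 3.58 and 4.27 CPM, a log2 ratio of 0.25 (-0.11 to 0.62). *Ly6c1*, the near copy of *Ly6c2*, had 111 and 73 UMIs (2.90 and 2.58 CPM), a log2 ratio of -0.17 (-0.62 to 0.27). Most Ly6C transcripts were thus counted as *Ly6c2*.

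By the pattern over 26 units, the 13 clusters in each group, the genes most like each member were found by the Pearson correlation of log2(CPM + 1) among 10312 genes with at least 200 UMIs. The units share 1 library and differ in depth, so the correlations are descriptions. For *Ly6c2* these were *Vps8* (r = 0.775), *Tnfsf14*, *Pstpip1*, *Ptpre* and *Maml2*, and for *Plac8* *Ubr4* (0.777), *Sp100*, *Xaf1*, *Slfn5* and *Elmsan1*. For *Ly6i* they were *Nod2* (0.865), *Socs3*, *Mknk1*, *Pira2* and *Zfp516*. *Ly6a* was most like *Cd69* (0.879), *Cnp*, *Sla*, *Ndufa13* and *Slc1a5*, and *Ly6e* most like *Hcls1* (0.897), *Nop58*, *Cyth4*, *Stk10* and *Arhgdib*. Between members the highest values were 0.715 for *Ly6a* with *Ly6e* and 0.562 for *Ly6c2* with *Plac8*.

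The 4 Ly6 members lie within 157 kb of chromosome 15 (GRCm38, GENCODE M21). In order they are *Ly6e* (chr15:74955051-74959905, plus strand), *Ly6i* (chr15:74979534-74983430, minus strand), *Ly6a* (chr15:74994877-74998031, minus strand) and *Ly6c2* (chr15:75108158-75111970, minus strand). *Plac8* lies on chromosome 5 (chr5:100553725-100572245, minus strand). No annotated gene overlaps any of the 5. In macrophage-like cells *Ly6i* and *Ly6a* were lower with telmisartan, and *Ly6c2*, farther along, was higher. The log2 ratio of *Ly6e* (-0.034) lay near the median of all genes (-0.045). The ratios of *Ly6e* and *Ly6a* changed sign under equal subcluster weights. *Ly6c1*, between *Ly6a* and *Ly6c2* at chr15:75044018-75048830, had a log2 ratio of -0.17 with an interval that included 0.

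Coding sequences of the neighbors are alike enough that reads could be split between them. Aligned over 393 bases, *Ly6c2* was 90.6% identical to *Ly6c1*, 83.5% to *Ly6a* and 83.2% to *Ly6i*. *Ly6i* was 86.3% identical to *Ly6a*. *Ly6e* stood apart, at 55.5% to *Ly6c2* and 57.8% to *Ly6a*. The levels of *Ly6c2*, *Ly6i* and *Ly6a* are for this reason uncertain by whatever share of reads could not be placed, which was not measured.

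Promoters of *Ly6c2* and *Plac8*, the pair that was higher together, were given in the RefSeq table (GRCm38.p6), and those of *Ly6i*, *Ly6a* and *Ly6e* were not. Each runs from 250 bases before to 50 after a transcript start, and 4 were found for the pair. They were searched on both strands for the interferon gamma activated site (TTCNNNGAA) and the core of the interferon-stimulated response element (GAAANNGAA). Neither string of letters was in any of the 4, while 8.30% and 8.56% of all 32851 promoters held them. The first promoter of each gene, at chr15:75111922-75112221 and chr5:100572156-100572455, both on the minus strand, is shown so that the windows searched can be seen, with no capitals as there was no match.
Ly6c2: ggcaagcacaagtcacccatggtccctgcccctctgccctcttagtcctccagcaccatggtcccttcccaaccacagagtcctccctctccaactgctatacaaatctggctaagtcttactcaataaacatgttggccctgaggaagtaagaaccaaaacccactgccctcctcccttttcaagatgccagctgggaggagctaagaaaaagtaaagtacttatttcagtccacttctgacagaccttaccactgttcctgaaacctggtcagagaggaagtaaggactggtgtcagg
Plac8: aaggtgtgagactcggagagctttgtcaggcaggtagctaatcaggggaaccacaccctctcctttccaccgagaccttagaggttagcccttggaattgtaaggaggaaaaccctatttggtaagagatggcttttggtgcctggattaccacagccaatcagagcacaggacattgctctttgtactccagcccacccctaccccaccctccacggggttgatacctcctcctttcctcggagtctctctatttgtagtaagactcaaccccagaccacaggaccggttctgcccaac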

How the data were processed

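The authors ran the WTA Analysis Pipeline 1.11 of BD Rhapsody on GRCm38 with GENCODE M19, introns included, and the deposited values are UMI counts of each gene in each cell and counts of Sample Tag reads, neither normalized. A cell's group was the tag (1 for control, 2 for telmisartan) with at least 75% of at least 10 tag reads. Cells with fewer than 150 or more than 5000 genes or over 20% mitochondrial UMIs were left out. Scrublet (scanpy 1.11.5, Python 3.11.15) called 0 doublets by itself, so the 942 cells with the highest scores were removed, the 9.51% predicted from the 941 cells with both tags within the limits.

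Clustering used Seurat 5.3.0 in R 4.3.3 with 2000 variable genes, 30 principal components, 20 neighbors and a resolution of 0.5 (0.4 for macrophage-like cells). A cluster was named for a class with 3 markers at least 4 times as high as in other cells. Macrophage and monocyte markers were not used to name a cluster. The remaining clusters, which carried macrophage markers, were named macrophage-like by default. Intervals are exact Poisson (CPM), exact conditional binomial (ratios) and Clopper-Pearson (shares), from scipy 1.17.1. Only the ratio intervals were tested on simulated data. These data were drawn as Poisson counts, so the test holds nothing on the spread between cells or mice. TMM factors came from edgeR 4.0.16, alignments from Biopython 1.88.

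The members and the 7 lists (other Ly6 family, classical and nonclassical monocyte, macrophage maturation, type I interferon, interferon gamma response, interferons and receptors) were chosen with earlier results of these data known. Named genes were the 5 members, other Ly6 family genes with at least 100 UMIs, of each other list the 4 genes with most UMIs and any past 2-fold, the 5 genes most like each member, and leading and marker genes of clusters.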

Additional observations from a re-analysis of the deposited data

Results flagged for a closer look

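Some ratios had the opposite direction to that of macrophage-like cells, with both intervals clear of 0. For *Ly6c2* this was neutrophil-like cells, at -1.78, a value that ran from -1.78 to -0.073 over 7 alternatives. For *Ly6i*, lower in macrophage-like cells as a whole, it was subcluster 2 (0.71) and subcluster 4 (1.115). For *Ly6a* it was T cell-like cells (0.36), with T cluster 1 (0.26) and T cluster 2 (0.58), subcluster 1 (0.061), subcluster 4 (1.14), dendritic cluster 2 (0.89) and dendritic cluster 3 (0.32). For *Ly6e* it was dendritic cell-like cells (0.065), subcluster 1 (0.033), subcluster 2 (0.15), subcluster 4 (0.22), subcluster 6 (0.072) and dendritic cluster 3 (0.23). In macrophage-like cells themselves the ratios of *Ly6a* and *Ly6e* changed sign under equal subcluster weights, at 0.0013 and 0.023. All are log2 ratios of telmisartan over control, each group was 1 pool, and none of these differences was tested.

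Cells over the mitochondrial limit, 2623 in control and 4433 in telmisartan, were used in no comparison and still held UMIs of all 5 genes. Their log2 ratios were 1.00 for *Ly6c2* (31.7 CPM in control and 63.3 in telmisartan), 0.59 for *Plac8*, -0.41 for *Ly6i*, -0.021 for *Ly6a* and 0.18 for *Ly6e*. The median cell among them had 1173 UMIs in control and 1143 in telmisartan, and these differences were not tested either.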

How the results depend on the processing

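Each log2 ratio in macrophage-like cells was recomputed under 12 alternatives. *Ly6c2* (0.80 to 1.43), *Plac8* (0.53 to 1.36) and *Ly6i* (-0.80 to -0.088) kept their direction in all 12, and *Ly6a* and *Ly6e* changed sign in 1 each. Values that left the counting interval were as follows, and the cause was not tested. With a 90% tag share *Ly6a* was -0.22. With at most 10% mitochondrial UMIs *Ly6a* was -0.14, *Ly6e* -0.065 and *Plac8* 1.36. Without doublet removal *Ly6a* was -0.11 and *Ly6e* -0.014. Without the shallow cluster, chosen after seeing the data, *Ly6c2* was 0.80, *Ly6i* -0.63, *Ly6a* -0.35 and *Plac8* 0.53, and the summed lists were 0.086 (classical monocyte), 0.27 (maturation), 0.48 (type I interferon), -0.55 (interferon gamma) and 0.13 (receptors). As UMIs per cell without scaling they were 0.97 (*Ly6c2*), -0.80 (*Ly6i*), -0.59 (*Ly6a*), -0.44 (*Ly6e*) and 0.87 (*Plac8*). As means of ln(1 + UMIs per 10000) *Ly6c2* was 0.88, *Ly6i* -0.30, *Ly6a* -0.0097 and *Plac8* 0.91. As thinned shares *Ly6c2* was 1.04, *Ly6i* -0.29, *Ly6a* -0.019 and *Plac8* 0.92. With equal subcluster weights *Ly6c2* was 1.21, *Ly6i* -0.088, *Ly6a* 0.0013, *Ly6e* 0.023 and *Plac8* 0.80. A minimum of 500 genes, TMM factors, a resolution of 0.8 and the Ly6 genes kept in the clustering moved none of them. In the other 3 classes no ratio changed sign under 7 alternatives, but several left their interval. In neutrophil-like cells *Ly6c2* ran from -1.78 to -0.073 and *Plac8* from 0.28 to 2.97, in T cell-like cells *Ly6c2* from 0.79 to 1.15 and *Ly6a* from 0.16 to 0.36, and in dendritic cell-like cells *Ly6e* from 0.057 to 0.15 and *Plac8* from 1.37 to 1.68. *Ly6i* in neutrophil-like cells ran from 0.16 to 1.39 within its wide interval.

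Over genes with at least 1 UMI in each group, 15.6% were at least 1.5-fold higher, 8.56% at least 1.5-fold lower, 9.53% at least 2-fold higher and 4.87% at least 2-fold lower. With at least 1000 UMIs, 0.775% were at least 1.5-fold lower, 0.82% at least 2-fold higher and 0.149% at least 2-fold lower. Of 280 recomputed levels 230 stayed within their interval. Precision is that of counting in 1 pool per group, which holds nothing on the spread between mice. No paired analysis was possible because each group was 1 pool.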

Other observations

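The cells removed by doublet score, 536 in control and 406 in telmisartan, were in no class. *Ly6c2* had 66.3 CPM in the control cells and 189 in the telmisartan cells among them, a log2 ratio of 1.51 (1.33 to 1.68). *Plac8* had 54.8 and 115 CPM, a log2 ratio of 1.07 (0.86 to 1.27). *Ly6a* (706 and 826 CPM) and *Ly6e* (1479 and 1622 CPM) were higher in the telmisartan cells, with log2 ratios of 0.23 (0.16 to 0.29) and 0.13 (0.087 to 0.18). Both were opposite in direction to macrophage-like cells, where the sign of either changed under equal subcluster weights. *Ly6i* had 51.2 and 46.8 CPM, a log2 ratio of -0.13 (-0.40 to 0.13). None of these differences was tested.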
